A study of Schizosaccharomyces pombe with 3 samples.

Results

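Fission yeast makes thiamine (vitamin B1) from a pyrimidine part and a thiazole part, which are built on separate branches and then joined. The genes of both branches, together with a phosphatase and uptake genes, are switched off when thiamine is present in the medium and switched on when it is missing, and the promoter of *nmt1* ("no message in thiamine") is for this reason widely used to control transgenes. Their activation depends on Thi1, a zinc cluster transcription factor. Described here are 7 rows of the 7049 genes in the count table, taken by identifier and not by a cut on any measured value. Earlier results of these data were known when the 7 genes were chosen. They are *nmt1* (SPCC1223.02, pyrimidine branch), *thi2* (SPBC26H8.01, thiazole branch), *thi4* (SPAC23H4.10c, the enzyme that joins both parts), *pho4* (SPBC428.03c, the thiamine-repressible acid phosphatase), *bsu1* (SPAC17A2.01, a plasma membrane transporter of vitamin B6), *thi9* (SPAC9.10, a thiamine transporter) and *thi1* (SPAC1486.10, the regulator). All 7 passed the filter on low counts.

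The study asked how the speed of RNA polymerase II shapes gene expression, using a form of the enzyme whose largest subunit, Rpb1, carries the N494D substitution and elongates slowly. RNA was sequenced from 1 library of the wild type (FBY2323) and 1 library each of the clones slow #1 (FBY2324) and slow #2 (FBY2325), which carry *rpb1-N494D* made independently by CRISPR/Cas9. All strains share the background h-, *ade6-M216*, *leu1-32*, *ura4-D18* and *his3-D1* with deletions of *fex1* and *fex2*, so the wild type is the parental laboratory strain and not a prototroph. The cells grew to mid-log phase in EMM, a minimal medium, to which adenine, histidine, leucine and uracil were added, and thiamine is not among the supplements that the labels list.

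The libraries held 31803128 counts (wild type), 40746838 (slow #1) and 30674459 (slow #2). The row of *ura4* had 0 counts in every library, while the rows of *fex1*, *fex2* and *his3*, which the genotype lists as deleted or disrupted, held 244 to 714 counts in each library (8.13 to 22.3 CPM). The source of these counts was not tested. For *rpb1*, the wild type had 792 CPM, slow #1 had 788 and slow #2 had 837, and counts per gene do not show the substitution. Levels are given as CPM, the counts of a gene scaled by edgeR to a common library size (TMM). Since CPM is relative and the RNA came from whole cultures, fewer expressing cells and less RNA per cell cannot be told apart. A gene was called when the quasi-likelihood test of edgeR gave an FDR under 0.01 with a change above 1.5-fold, and an interval after a fitted change is the 95% interval of that test. Within a gene, the spread in this test comes from the 2 clones, which leaves 1 residual degree of freedom. The test moderates it with the spread of the other genes, which adds 5.246 prior degrees of freedom. An interval or FDR thus rests more on the spread of other genes than on the gap between the clones. The single wild-type library is assumed to vary as the clones do.

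The start regions of the genes were read first, because the TATA box of *nmt1* is the element that is altered in the weaker versions of its promoter used in the laboratory. In the window from 250 bases before to 50 bases after the RefSeq transcript start, the letters TATAAA stood on the gene's strand in 5 of the 7 genes and on neither strand in *bsu1* and *thi1*. Of all 5103 protein-coding promoters searched, 30.2% held TATAAA on the gene's strand and 48.1% on either strand. In *nmt1*, *thi2*, *thi4* and *pho4* a match began 31 to 35 bases before the start, whereas the only match of *thi9* began 215 bases before it. The rows of these 5 genes in the count table begin further upstream than the RefSeq starts, so the distances hold for RefSeq starts only. A match that began 26 to 40 bases before the start, a window set after these positions were seen, was found in 4.39% of all promoters. The matches are descriptions of letters and not mapped binding sites. The nearest match of each gene is printed below with 20 bases on either side, 5′ to 3′ on the gene's strand of RefSeq assembly ASM294v3, with TATAAA in capitals. The first 4 show the shared position close to the start and the last shows the distant match of *thi9*.
nmt1 (chrIII:1838364-1838409, plus strand): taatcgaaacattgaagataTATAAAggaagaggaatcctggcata
thi2 (chrII:3940474-3940519, plus strand): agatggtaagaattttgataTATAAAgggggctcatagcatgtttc
thi4 (chrI:1589878-1589923, plus strand): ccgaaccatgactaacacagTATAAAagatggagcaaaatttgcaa
pho4 (chrII:447035-447080, minus strand): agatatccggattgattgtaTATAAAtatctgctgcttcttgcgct
thi9 (chrI:1482184-1482229, plus strand): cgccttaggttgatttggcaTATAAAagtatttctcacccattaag

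Across the 7 genes, the phosphatase gene *pho4* and the transporter gene *thi9* were read at less than 50% of the wild-type level in both clones, the synthesis genes and the regulator were lower by smaller amounts, and *bsu1* was higher. None of the 7 passed the threshold of edgeR, where 0.390% of the 6418 genes tested were called lower and 0.312% higher. With DESeq2, *pho4* and *thi9* were called lower, against 3.72% of genes called lower and 5.08% called higher. The same 2 were called by edgeR at an FDR under 0.05 (5.59% of all genes lower, 6.79% higher) and at 0.01 without the filter on low counts (1.92% lower, 1.89% higher). With a common dispersion *thi9* alone was called (0.592% lower, 0.530% higher), and with libraries scaled to *nda2*, *act1* and *fba1* the called genes were *pho4*, *thi9* and *thi4* (9.52% lower, 2.91% higher). Both clones lay below the wild type for 6 of the 7 genes, as they did for 42.6% of all genes tested, and above it for *bsu1*, as for 42.7% of all genes. At an unadjusted p under 0.05 in edgeR, 4 of the 7 genes were lower and 0 higher, where 17.9% of all genes were lower and 17.5% higher. The 7 genes are protein-coding, and protein-coding genes leaned lower. Of the 5013 tested, 2357 were below the wild type in both clones and 1955 above it. By the same unadjusted p in edgeR, 1029 of them were lower and 803 higher. The median fitted log2 fold change was -0.38 over the 7 genes, 0.010 over all genes tested and -0.033 over the 5013 protein-coding genes.

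**Figure D1:**
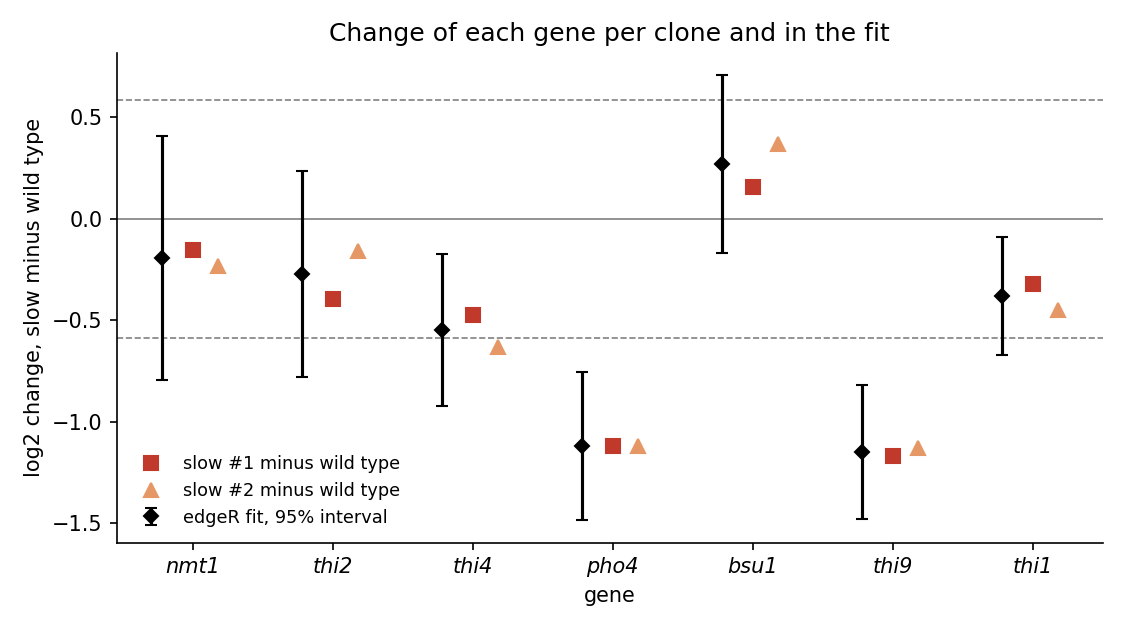
Log2 change of each of the 7 genes (x axis) in the slow mutant minus the wild type (y axis, log2 CPM). Squares and triangles are slow #1 and slow #2, black diamonds the edgeR fit with its 95% interval, and dashed lines mark a 1.5-fold change. The values of *pho4* and *thi9* lie between -1.17 and -1.12 in both clones, *bsu1* lies above 0 in both, and the intervals of *nmt1*, *thi2* and *bsu1* span 0.

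The regulator gene *thi1* lies on chromosome I from 3211823 to 3214509 on the plus strand of ASM294v2, the assembly of the count table, as a single exon. The level of *thi1* was 152 CPM in the wild type against 122 in slow #1 and 111 in slow #2. Both clones were below the wild type, by -0.32 and -0.45 on the log2 scale. The counts behind these values are the lowest of the 7 genes, at 4858 in the wild type, and counting error alone gives *thi1* an interval of -0.38 to -0.26 in slow #1. The fitted log2 fold change was -0.38 (standard error 0.120, interval -0.67 to -0.09, FDR = 0.0767 in edgeR and 0.160 in DESeq2). The regulator was thus not called by either tool.

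The *nmt1* gene (chromosome III, 1838335 to 1839525, plus strand) encodes the enzyme that makes the pyrimidine precursor. Its level reached 12093 CPM in the wild type compared with 10856 in slow #1 and 10286 in slow #2. The clones lay below the wild type by -0.16 and -0.23 on the log2 scale, and the fitted change of -0.19 (standard error 0.248, interval -0.80 to 0.41, FDR = 0.608 in edgeR and 0.497 in DESeq2) spans 0. This single gene took 1.22% of all counts in the wild type, with 1.10% and 1.01% in the clones. Per kilobase of row length it ranked number 3, 1 and 2 among the protein-coding genes of these libraries, so the gene was read at a very high level in every strain.

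The *thi2* gene (chromosome II, 3939342 to 3941699, plus strand), which encodes the thiazole synthase, had 2845 CPM in the wild type against 2166 in slow #1 and 2552 in slow #2. The clones were further apart for *thi2* than for any other of the 7 genes, by 0.24 on the log2 scale, while both remained under the wild type. Its fitted log2 fold change was -0.27 (standard error 0.210, interval -0.78 to 0.24, FDR = 0.397 in edgeR and 0.346 in DESeq2). The interval again spans 0.

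The *thi4* gene (chromosome I, 1589743 to 1593248, plus strand) encodes a bifunctional enzyme that phosphorylates the thiazole part and couples it to the pyrimidine part. Its level was 866 CPM in the wild type compared with 624 in slow #1 and 560 in slow #2, which is -0.47 and -0.63 on the log2 scale. Among the 3 synthesis genes it stood lowest relative to the wild type in both clones. The fitted value was -0.55 (standard error 0.154, interval -0.92 to -0.17, FDR = 0.0596 in edgeR and 0.0194 in DESeq2), and the change is under 1.5-fold. Its row overlaps the row of *cdb4* on the opposite strand over 1322 bases. The *cdb4* row had 282 CPM in the wild type, while slow #1 had 144 and slow #2 had 155. It was called lower by DESeq2 (-0.91, FDR = 0.0121 in edgeR and 2.28e-05 in DESeq2). The part of this overlap in the value of *thi4* was not tested.

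The *pho4* gene (chromosome II, 445324 to 447177, minus strand) encodes a secreted acid phosphatase that removes phosphate from thiamine phosphates outside the cell. The wild type had 1305 CPM of *pho4*, slow #1 had 601 and slow #2 had 601. The clones differed from each other by 0.00059 on the log2 scale, where the median gap between them was 0.108 over the 1709 genes read in the wild type at or above the level of *thi1*. This gap depends on the TMM scaling. When the libraries were scaled to *nda2*, *act1* and *fba1*, slow #1 lay at -1.24 and slow #2 at -1.38. The fitted log2 fold change was -1.12 (standard error 0.151, interval -1.49 to -0.75), a 2.17-fold lower level. Its FDR was 0.0122 in edgeR, just above the threshold of 0.01, and 9.07e-09 in DESeq2, where it was called. By counting error alone the value in slow #1 lies between -1.14 and -1.10.

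The *thi9* gene (chromosome I, 1481401 to 1484752, plus strand), which encodes the thiamine transporter of the plasma membrane, had 886 CPM in the wild type against 394 in slow #1 and 405 in slow #2. Both clones were below the wild type by about the same amount, -1.17 and -1.13 on the log2 scale. The fitted value of -1.15 (standard error 0.136, interval -1.48 to -0.82) is a 2.22-fold lower level, with an FDR of 0.0105 in edgeR and 4.89e-09 in DESeq2, where *thi9* was called. It was number 93 and *pho4* number 102 from the lowest fitted change among all genes tested. Beyond 1.5-fold, *pho4* and *thi9* were the only 2 of the 7 genes with a lower fitted level, a size that 7.73% of all genes tested had downward and 12.9% upward.

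The *bsu1* gene (chromosome I, 3549682 to 3552067, plus strand) had 873 CPM in the wild type compared with 975 in slow #1 and 1129 in slow #2. It was the only one of the 7 genes with both clones above the wild type, by 0.16 and 0.37 on the log2 scale. The fitted value was 0.27 (standard error 0.181, interval -0.17 to 0.71, FDR = 0.331 in edgeR and 0.358 in DESeq2), and the interval spans 0. When the libraries were scaled to *nda2*, *act1* and *fba1* instead, the value of *bsu1* was 0.077.

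**Figure D2:**
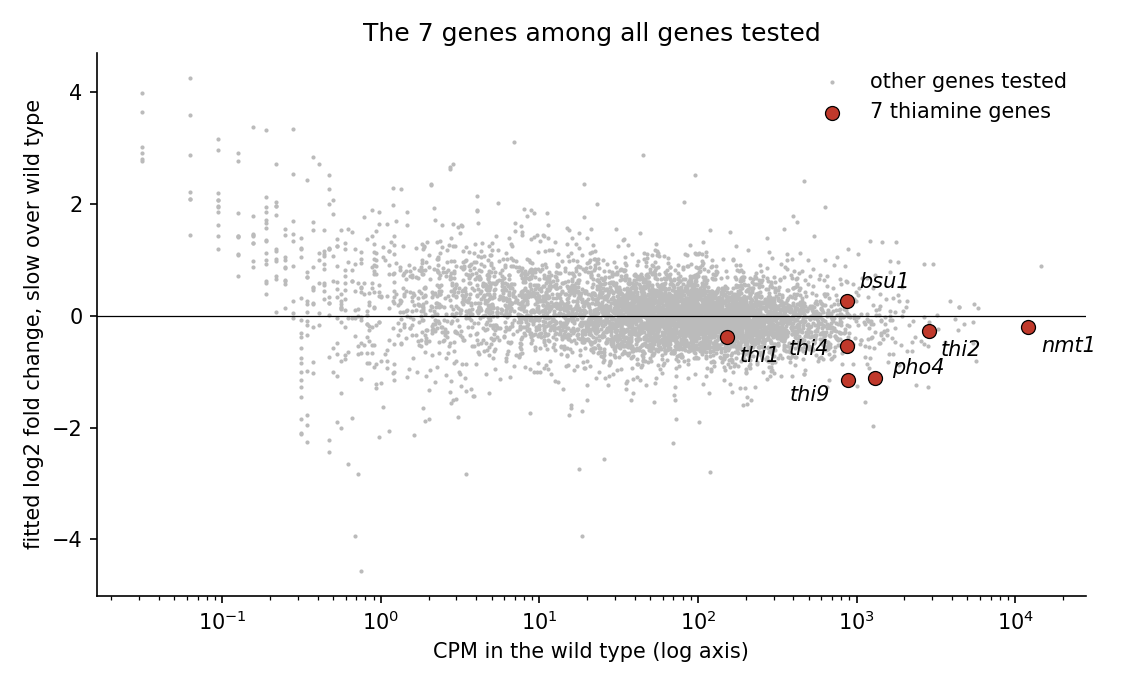
Fitted log2 fold change of each gene tested (y axis) against its CPM in the wild type (x axis, log axis), with the 7 thiamine genes as red points and all other genes with a count in the wild type in grey. The 7 genes lie between 152 and 12093 CPM, and *pho4* and *thi9* are the lowest of them at -1.12 and -1.15.

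Ratios between 2 genes of the same library do not depend on how the libraries are scaled. Per kilobase of row length, the level of *pho4* over that of *thi9* was 2.66 in the wild type, while slow #1 had 2.75 and slow #2 had 2.68, so both genes kept about the same proportion to each other. The level of *bsu1* over that of *thi9* was 1.38 in the wild type against 3.47 in slow #1 and 3.92 in slow #2. For *bsu1* over *pho4* the ratio was 0.520, 1.26 and 1.46, so their order was turned round in both clones. The ratio of *nmt1* to *thi9* went from 38.4 in the wild type to 77.5 and 71.5 in the clones. These ratios were not tested.

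By level per kilobase of row length, the order in the wild type was *nmt1* (10153 CPM per kilobase), *thi2* (1207), *pho4* (704), *bsu1* (366), *thi9* (264), *thi4* (247) and *thi1* (56.5). In slow #1 and slow #2, *bsu1* (409 and 473) stood above *pho4* (324 and 324) and *thi4* (178 and 160) above *thi9* (118 and 121). Among the protein-coding genes *pho4* ranked number 101 in the wild type and 270 and 291 in the clones, and *thi9* number 360 and then 1018 and 1029. The rows of *thi2* (2358 bases) and *thi9* (3352 bases) are much longer than their RefSeq transcripts (1174 and 2334 bases), and the other 5 rows are 0.953 to 1.17 times as long. With RefSeq transcript lengths the order in the wild type was unchanged, with *thi2* at 2424 CPM per kilobase and *thi9* at 379, but in slow #2 *thi4* (169) and *thi9* (173) changed places, so these neighbours in the order cannot be ranked in that clone.

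**Figure D3:**
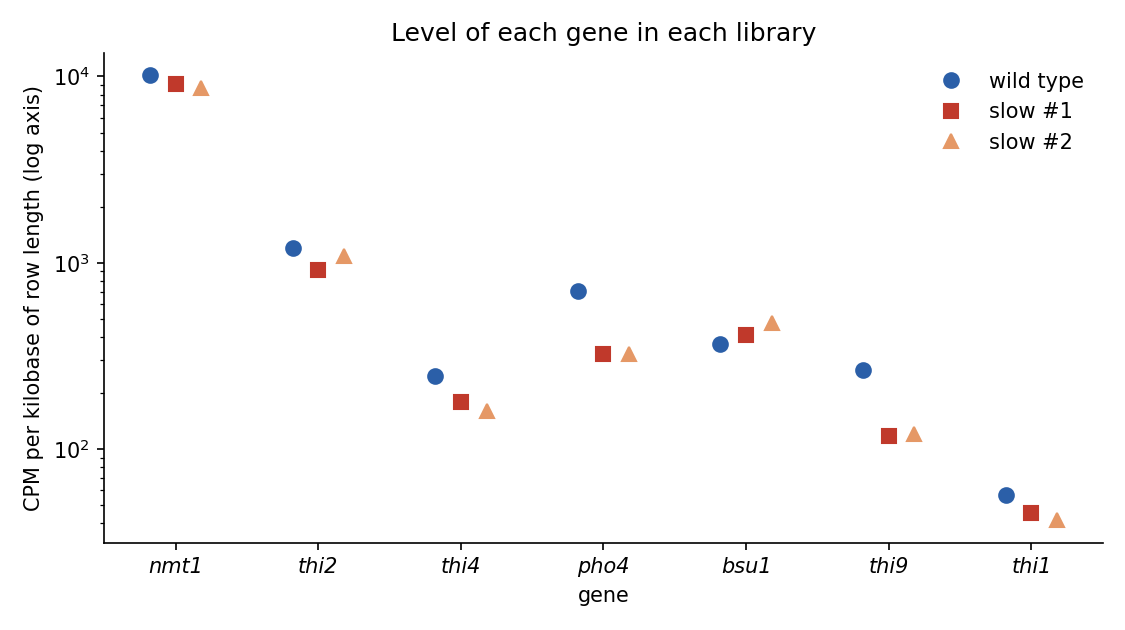
CPM per kilobase of row length (y axis, log axis) of the 7 genes (x axis) in each library, with circles for the wild type, squares for slow #1 and triangles for slow #2. The *nmt1* gene lies highest in every library at 8636 to 10153, *thi1* lowest at 41.4 to 56.5, and for *pho4* and *thi9* both clones lie well under the wild type.

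Several of these rows share their place with other features, which were counted by strand. The noncoding RNA SPNCRNA.1234 runs antisense across the whole row of *nmt1* and had 2134 CPM in the wild type compared with 2214 in slow #1 and 1612 in slow #2. Its counts equalled 17.6%, 20.4% and 15.7% of those of *nmt1*. The clones lie on either side of the wild type and the fitted change of -0.16 was not called (FDR = 0.676 in edgeR and 0.687 in DESeq2).

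At *pho4*, the antisense noncoding RNA SPNCRNA.1358 overlaps the last 114 bases of the row and had 48.4 CPM in the wild type, while slow #1 had 30.8 and slow #2 had 23.4. It was called lower by DESeq2 (-0.83, FDR = 0.0365 in edgeR and 0.00821 in DESeq2). At *thi9*, SPNCRNA.743 overlaps antisense over 1170 bases with 19.4, 12.7 and 16.1 CPM in the same order, without a call (-0.43, FDR = 0.182 in edgeR). On the strand of *thi9*, SPNCRNA.171 lies wholly inside the row over 337 bases and had 0 counts in every library. Reads in that stretch fit both rows and may be missing from the value of *thi9*, since the counting options that the paper names include none for such reads. The stretch lies before the RefSeq transcript start of *thi9*, in the part of the row that goes beyond its RefSeq transcript.

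Of the nearest neighbours that do not overlap, *met26*, which encodes the last enzyme of methionine synthesis, ends 228 bases before the row of *thi9* on the same strand. The part of that row nearest to *met26* lies before the RefSeq transcript start of *thi9*, and the source of its reads was not tested. The level of *met26* was 5528 CPM in the wild type against 6852 in slow #1 and 5975 in slow #2, a fitted change of 0.21 (FDR = 0.555 in edgeR) in the direction opposite to *thi9*. The genes *tlc4* after *bsu1* and *tea3* after *thi1* stood at -0.55 and -0.58 (FDR = 0.0332 and 0.0422 in edgeR), without a call by either tool. None of the non-overlapping nearest neighbours that passed the filter was called by edgeR or DESeq2.

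The remaining genes of thiamine metabolism and of related pathways were taken from lists, and none of their members was called by edgeR. Of 7 other thiamine genes, among them *tnr3*, which encodes thiamine diphosphokinase, 6 were below the wild type in both clones. At an unadjusted p under 0.05, 5 of them were lower and 0 higher, and DESeq2 called 0. Over all genes tested, the shares were 42.6% below the wild type in both clones and 42.7% above it, 17.9% lower and 17.5% higher by unadjusted p, and 3.72% lower and 5.08% higher in DESeq2. Their median log2 fold change was -0.36. The values ran from -0.42 for SPBC1604.04, annotated as a thiamine pyrophosphate transporter, to -0.015 for *thi201*, annotated as a phosphomethylpyrimidine kinase. The range was thus narrower than that of the 7 genes above, and no value reached 1.5-fold.

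The gene *thi7* (SPBC1683.05), which RefSeq names as a transporter gene, is on none of these lists and was looked up after its value had been seen. Its level was 183 CPM in the wild type compared with 74.0 in slow #1 and 76.4 in slow #2. The gene fell by 1.29 on the log2 scale (standard error 0.110, FDR = 0.00596 in edgeR and 1.26e-09 in DESeq2). It was called lower by both tools, as were 0.390% of all genes tested in edgeR and 3.72% in DESeq2. Since *thi7* was picked for its value, this call is not a result about thiamine genes.

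Of 9 genes for enzymes that use thiamine diphosphate as cofactor, 4 were lower and 5 higher in both clones, around a median of 0.22. The pyruvate decarboxylase gene *pdc201* had 31.4 CPM in the wild type, while slow #1 had 70.7 and slow #2 had 77.7. Its fitted value was 1.24 (standard error 0.136), with an FDR of 0.0102 in edgeR and 2.04e-07 in DESeq2, where it was called higher. The largest value of this list was 2.09 for *pdc102*, a gene with 2 counts in the wild type against 13 in slow #1 and 7 in slow #2, and the smallest was -0.45 for *pdb1*, which encodes the beta subunit of pyruvate dehydrogenase E1. At an unadjusted p under 0.05, 2 of the 9 were lower and 1 higher, where 17.9% and 17.5% of all genes were, and the counts in both clones compare with 42.6% lower and 42.7% higher over all genes. DESeq2 called 1 of the 9 higher and 0 lower, beside 5.08% higher and 3.72% lower over all genes. With only 9 genes, it cannot be judged whether these shares are like those of all genes.

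Vitamin B6 is a substrate of the pyrimidine branch in budding yeast. Of 13 genes for its synthesis and transport, 7 were lower and 2 higher in both clones, around a median of -0.09. The lowest value was that of *sno1*, which encodes a subunit of the pyridoxal phosphate synthase. The level of *sno1* was 243 CPM in the wild type compared with 159 in slow #1 and 151 in slow #2, and it was called lower by DESeq2 only (-0.65, standard error 0.119, FDR = 0.0228 in edgeR and 0.00444 in DESeq2). The highest value was 0.39 for SPCC576.17c, and by unadjusted p under 0.05, 5 of the 13 were lower and 0 higher, beside 17.9% and 17.5% of all genes. Over all genes 42.6% were lower and 42.7% higher in both clones, and DESeq2 called 3.72% lower.

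Among 4 genes listed as other acid phosphatases, 2 were lower and 2 higher in both clones, around a median of 0.13. The phosphate-repressible *pho1* had 1776 CPM in the wild type, while slow #1 had 4832 and slow #2 had 4081. Its fitted value was 1.33 (standard error 0.238, FDR = 0.0224 in edgeR and 1.58e-10 in DESeq2), opposite in sign to that of *pho4*. The lowest of the 4 was SPBC21H7.03c, annotated as a multiple inositol polyphosphate phosphatase, at -0.18. By unadjusted p, 2 of the 4 were higher and 0 lower, beside 17.5% and 17.9% of all genes, and the counts in both clones compare with 42.6% lower and 42.7% higher over all genes. DESeq2 called 1 of the 4 higher, as it did 5.08% of all genes.

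**Figure D4:**
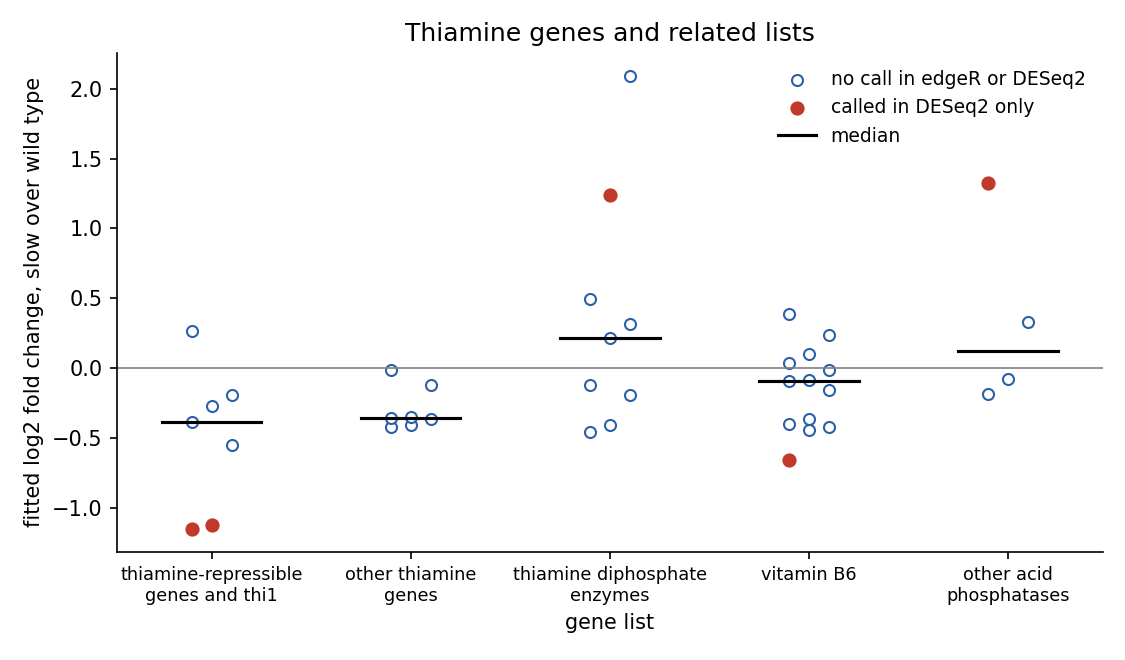
Fitted log2 fold change in the slow mutant over the wild type (y axis) of the 7 genes and of the members of the 4 related lists (x axis), 1 point per gene, with a black line at each median. Filled red points were called by DESeq2 only and open points by neither tool, and the medians are -0.38, -0.36, 0.22, -0.09 and 0.13 from left to right.

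By the 2 changes per clone, the protein-coding genes most like *nmt1* in level and change were *rpp103*, *ubi3* and *rpl3601*, at Euclidean distances of 0.567, 0.584 and 0.689 on the log2 scale. Only 4 genes lay within 2-fold of its level per kilobase, so few were compared, and these distances are greater than the change of *nmt1* itself in either clone.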

How the data were processed

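Total RNA depleted of ribosomal RNA was sequenced strand-specifically from the 3 strains. The authors trimmed reads with Trimmomatic 0.36, aligned them to ASM294v2 with STAR 2.5.1 and deposited raw counts per gene from featureCounts (version not stated in these sources), which by its stated options counted fragments strand by strand. The quasi-likelihood test of edgeR 4.0.16 (R 4.3.3) was fitted to these counts after TMM scaling, for the 6418 genes that filterByExpr kept (count of at least 10, total of at least 15), with Benjamini-Hochberg adjustment. The TMM factors were 1.01, 1.02 and 0.978 for the wild type, slow #1 and slow #2. Dividing a log2 fold change by the root of its F statistic gave its standard error. Changes per clone compare log2 CPM (prior count 2), and their exact counting intervals cover counting error only, since reads carried no molecular identifiers. DESeq2 1.42.0 was the alternative tool. Names were matched for 6844 of 7049 identifiers to the RefSeq table of ASM294v3. Its coordinates are used only for the promoter windows, the printed sequences, and the RefSeq transcript starts and lengths. TATAAA was searched on both strands.

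Named were the 7 genes, their overlapping or nearest features, the listed genes called by edgeR or DESeq2 or with the largest and smallest change of their list, *rpb1*, and the 3 genes nearest to *nmt1*. Other listed genes could be named without values, as *tnr3* was. Outside this rule stand *thi7*, chosen after its value was seen, the marker and deletion rows of the genotype, and the 3 genes used for scaling. The genes and lists were chosen with earlier results of these data known. On simulated counts for this comparison with 6385 genes in the fit, edgeR called 86 of 100 genes changed 2-fold and 100 of 100 changed 4-fold, with 1 false call. DESeq2 called 74 and 99 of 100, with 0 false calls, over 6680 genes. The changed genes were drawn from those with a mean count above 100, and genes of like level were given the same spread. Real genes of like level can differ in spread, so these shares do not measure how many real changes were missed. In the real data edgeR called fewer genes than DESeq2, with 20 higher and 25 lower against 321 and 235.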

Additional observations from a re-analysis of the deposited data

How the results depend on the processing

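The fitted change of each of the 7 genes kept its direction under every alternative run. The calls of *pho4* and *thi9* depended on the tool, the filter, the scaling and the threshold. Both were called lower by DESeq2 (-1.12 and -1.15), without the filter on low counts (-1.12 and -1.15, FDR = 0.00583 and 0.00402 in edgeR), at an FDR under 0.05, and with scaling to *nda2*, *act1* and *fba1* (-1.31 and -1.34). That scaling also called *thi4* (-0.73), and it moved the median of all genes from 0.010 to -0.18. With a common dispersion, an alternative chosen after seeing the data, *thi9* was called (-1.15, FDR = 0.00994 in edgeR). The number of the 7 genes called lower was thus 0 in the main settings, 2 with DESeq2, without the filter and at an FDR under 0.05, 3 with that scaling, 1 with the common dispersion, and 0 with RLE factors, upper-quartile factors, the robust fit and without structural and mitochondrially encoded RNAs. With RLE factors the FDR of *pho4* and *thi9* in edgeR was 0.0223 and 0.0206, and without those RNAs 0.0192 and 0.0185. Leaving out slow #1 or slow #2 gave -1.12 and -1.12 for *pho4*, -1.13 and -1.17 for *thi9*, -0.63 and -0.47 for *thi4*, -0.16 and -0.39 for *thi2*, -0.24 and -0.16 for *nmt1*, 0.37 and 0.16 for *bsu1* and -0.45 and -0.32 for *thi1*, as values with no test. Over all genes, 20 were called higher and 25 lower in the main settings. The counts were 0 and 0 with RLE factors (1073 higher and 1132 lower by unadjusted p under 0.05, and 321 and 235 called by DESeq2), 187 and 611 with scaling to the 3 genes, 127 and 129 without the filter, 34 and 38 with the common dispersion, 4 and 11 without structural and mitochondrially encoded RNAs, and 436 and 359 at an FDR under 0.05. The cause of these differences was not tested. No paired analysis was possible because the wild type has 1 library.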
